A study of Mus musculus with 32 samples.

Results

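Among 16 libraries of cultured mouse islets kept at 11.1 mM glucose, the share of counts from mitochondrially encoded genes ran from 3.49 to 34.7%, and the libraries were divided by it at 10%. The members are those 16 of the 32 libraries in the series. The 13 rows whose symbol starts with mt- were summed as a percent of all deposited counts of a library. This put 11 libraries in a high class (10% or more) and 5 in a low class. The members of each class were chosen by this measured share. It was measured in the same libraries and is no treatment, so the mitochondrial rows are described without a test and the tests concern nuclear genes.

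Mice of both sexes on a C57BL/6NHsd background gave islets at 10 weeks of age. In hIAPP mice human IAPP, the gene of islet amyloid polypeptide, replaced the mouse gene at its own locus by homologous recombination. Their wild-type littermates, called mIAPP, kept mouse Iapp. After a night of recovery at 11.1 mM, islets were held for 48 h at 11.1 mM (8 hIAPP and 8 mIAPP libraries) or at 16.7 mM (8 and 8). All 16 libraries compared here share the 11.1 mM culture. Each of 8 experiment sets gave 1 library of each group. The number of animals behind a set is not given. Where the sets do not stand for separate animals, p-values measure only the spread between these libraries.

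Mitochondrial DNA encodes 13 proteins, all of them subunits of the respiratory chain or of ATP synthase, and every other protein of the organelle is encoded in the nucleus and imported. Both strands of the circle are transcribed into long precursors that are cut into mature RNAs, most of which gain a short poly(A) tail and can therefore enter a poly(A)-selected library. In beta cells oxidative metabolism couples glucose to insulin release, and insulin is folded in an endoplasmic reticulum (ER) with a heavy load of secretory protein.

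The share went with the experiment set. At 11.1 mM the hIAPP libraries of sets 1 to 8 had 20.6, 17.5, 5.23, 6.49, 18.6, 13.2, 27.2 and 23.8%, and the mIAPP libraries 20.4, 27.5, 3.49, 5.25, 7.53, 20.3, 34.7 and 26.7%. Sets 3 and 4 were low in both genotypes, 5 sets were high in both, and set 5 was high in hIAPP and low in mIAPP islets. Nearest to the 10% limit were the mIAPP library of set 5 below it (7.53%) and the hIAPP library of set 6 above it (13.2%). Across the 8 sets the shares of the 2 genotypes had a Pearson r of 0.826 (exact permutation p = 0.0158, adjusted over 3 relations 0.0247) and a Spearman rho of 0.81 (exact permutation p = 0.0218, adjusted 0.0551). Without sets 3 and 4, the farthest from the median, r was 0.556, so the relation rests in part on those sets. Class and set therefore cannot be told apart here, apart from the contrast within set 5.

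**Figure D1:**
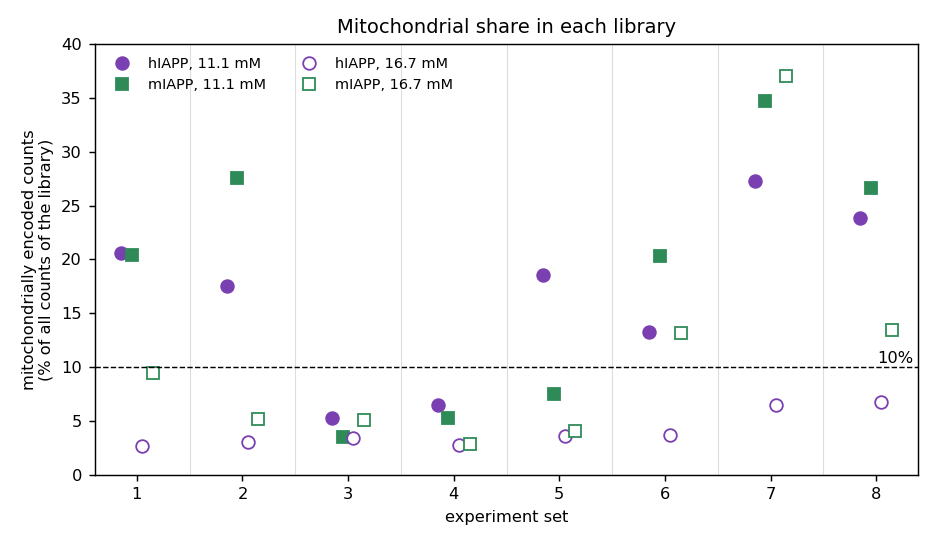
Percent of all counts in mitochondrially encoded genes (y axis) by experiment set (x axis), 1 point for each of the 32 libraries; filled symbols are 11.1 mM, open symbols 16.7 mM, and the dashed line is the 10% limit. Filled points of sets 3 and 4 lie under the line in both genotypes, those of set 5 on either side of it (18.6% and 7.53%), and set 7 is highest in 3 of the 4 groups.

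Total counts ran from 16.1 to 34.8 M (in units of 1000000). The nuclear total, which carries the tests, was lower in the high class, at 18.5 ± 3.87 against 26 ± 3.88 M (SD, n = 11 and 5; exact permutation within genotype, adjusted over 25 library measures p = 0.0159; 0.000638 is the smallest raw p these arrangements can give). That permutation treats the libraries of a set as independent. When the class patterns of whole sets were permuted instead (168 arrangements, smallest raw p 0.00595), a test chosen after seeing the data, the adjusted p of the nuclear total was 0.0595 and none of the 25 measures passed. The nuclear total did not pass without set 3 (exact permutation, adjusted p = 0.0567) or set 4 (0.227) either. The insulin genes, which define beta cells, held 24.2 ± 2.7% of the nuclear counts of high libraries and 24.8 ± 5.29% of low libraries (exact permutation, adjusted p = 0.878). The labelled tissue thus carried its defining transcripts in both classes. Set 7 stands apart: its 2 libraries at 11.1 mM had the highest shares of their genotype and the fewest detected nuclear genes (18705 and 18405). They also had the fewest nuclear counts, 13.7 M in hIAPP and 10.5 M in mIAPP. At equal depth they had 18480 and 18405 genes, and the mIAPP library of set 5 had fewer (18375). Their summed vomeronasal receptor levels were 17757 and 4732 CPM, against 984 CPM in the next library. In the hIAPP library of set 7 nearly all of that sum lay in the single gene Vmn1r18. Counts are therefore also given without set 7.

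All 13 mitochondrially encoded genes were higher in the high class, as the rule fixes for their sum, and no library of one class overlapped the other in any of them. mt-Co1, the catalytic subunit of cytochrome c oxidase (chromosome M, 5328 to 6872 on GRCm38), stood at 13928, 17666, 9767, 13780.4 and 20680.4 CPM (counts per 1000000 counts, here over all counts) in the low libraries, given here and below in the order hIAPP set 3, hIAPP set 4, mIAPP set 3, mIAPP set 4 and mIAPP set 5. In the 11 high libraries its lowest, median and highest values were 35133, 52334 and 88752. mt-Cytb, the cytochrome b of complex III, stood at 6949, 8562, 5778, 6921 and 12846 in the low libraries and at 18148, 26438 and 43559.9 in the high. mt-Nd6, the complex I subunit read from the opposite strand, stood at 2024, 2695, 1054, 2129 and 2361 in the low and 5767, 9312 and 15574 in the high libraries.

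RNAs of both strands of the circle were thus higher. As a level per kilobase, mt-Co1 was highest in both classes, at a mean of 38477 CPM per kb in high and 9815 in low libraries. mt-Nd3, a small complex I subunit, was lowest, at 1436 and 122 CPM per kb. Relative to the nuclear counts, the class means differed by 4.33-fold (mt-Cytb) to 7.02-fold (mt-Co2) in 12 of the genes and by 14.7-fold in mt-Nd3. Several of these genes, among them mt-Nd3 and mt-Co2, have near-identical nuclear copies, described below. Their single levels, ranks and folds depend on how reads were split between the copies.

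**Figure D2:**
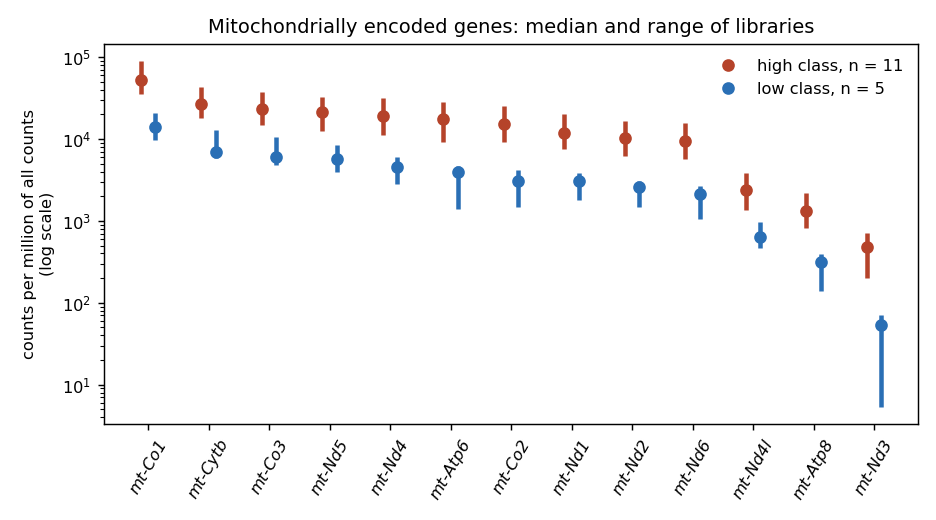
Level of each mitochondrially encoded gene in CPM over all counts (log y axis); points are class medians and bars run from the lowest to the highest library (high n = 11, low n = 5). The bars of the classes do not overlap in any gene, which the rule fixes for their sum. The gap is widest in mt-Nd3, where it depends on how reads were split with a near-identical nuclear copy.

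Nuclear copies of mitochondrial DNA hold part of the same sequence. A run of unprocessed pseudogenes on chromosome 1 (24611535 to 24616197, minus strand) repeats part of the circle, and 23 nuclear rows in all share at least one 31-base word with a mitochondrial transcript. Of the words of mt-Nd3, mt-Atp6, mt-Co2, mt-Co3 and mt-Nd4l, 98.1 to 100% also lie in such rows, against 0% for mt-Nd1. The pairs below, from the GENCODE M21 transcripts, show how near the copies are to the mitochondrial genes. Capitals mark the bases that differ; the first is T1056A in the mt-Co1 pair and T3C in the mt-Nd3 pair, with the mitochondrial base first and positions counted from 1 at the 5′ end of the mitochondrial transcript.
mt-Co1, bases 1054 to 1114: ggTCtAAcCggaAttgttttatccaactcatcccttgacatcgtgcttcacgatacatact
Gm29216, bases 1 to 61: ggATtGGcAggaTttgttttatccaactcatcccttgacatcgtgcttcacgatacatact
mt-Nd3, bases 1 to 61: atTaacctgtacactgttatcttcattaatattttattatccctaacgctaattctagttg
Gm28438, bases 1 to 61: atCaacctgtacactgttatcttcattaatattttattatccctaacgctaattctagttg

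Over 492 aligned bases Gm29216 and mt-Co1 were 98.8% identical, with 6 differing bases, and Gm28438 and mt-Nd3 were 99.7% identical over 345 bases. Gm28661, identical to mt-Co2 over all of its 681 bases, held a mean of 16595 nuclear CPM in the high and 4712 in the low class. Gm29216 held 7686 and 1899, and Gm28438 2192 and 326. On the same scale mt-Nd3 itself had 664 and 45.1, less than its copy Gm28438. Most sequence of Gm28661, Gm29216 and Gm28438 also lies in the mitochondrial genes, so most of their reads cannot be told apart. Other rows of the 23 share little, such as Cep295 with 4 of 6124 words. All 23 are described only, and no call of theirs is read as a result. Those that passed the filter on low counts were among the nuclear rows tested. Leaving all 23 out changed the 6995 calls given next to 6978 (3286 higher and 3692 lower). With the rows added to the mitochondrial sum, the high libraries had 14.7 to 37.8% and the low ones 4.05 to 8.83%, and 0 libraries changed class.

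For nuclear genes the classes were compared with genotype as a term, so the question is which nuclear transcripts went with the mitochondrial share at a fixed glucose level. Of 17559 genes tested, 3296 were higher in the high class (18.8%) and 3699 were lower (21.1%), together 6995 (39.8%; edgeR quasi-likelihood test, Benjamini-Hochberg adjusted p under 0.05). The larger changes were mostly upward: 1476 genes were called more than 2-fold higher and 445 more than 2-fold lower. Genes with few counts could pass the filter on low counts through 1 class alone, so this split is a description. The 3512 genes with the lowest mean CPM had a median log2 change of 0.54, and the 3512 with the highest -0.08. The median log2 change of all genes was 0.02 and under upper quartile scaling 0.13, which moved the calls to 4164 higher and 2719 lower. The classes did not overlap in 861 higher genes (4.9%) and 1273 lower genes (7.25%). Levels below are TMM-scaled CPM over the nuclear counts, and log2 changes are high minus low, relative to the other nuclear RNA.

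With the experiment set as a block the class contrast rests on set 5 alone, and 6 genes passed (0.0342%), against 6995 without it. The 6 were Eif2s3y, Gm21962, Olfr905, a second row of Zc3h11a, Gm20768 and Klkb1, all higher, and named after their values were seen; Eif2s3y and that row of Zc3h11a were not called without the block. Eif2s3y, on chromosome Y, stood at 97 CPM in the hIAPP and 16.5 CPM in the mIAPP library of set 5, and the Y-linked genes summed to 183 and 36.5 CPM there. The part of this Y-linked difference in the blocked contrast was not tested. With the nuclear total as a covariate 426 genes passed (2.43%; 1.41% higher and 1.02% lower), 416 of them as in the comparison without it. That total nearly splits with class, at 10.5 to 23.2 M in the high and 22.2 to 32.5 M in the low libraries. Calls lost with this covariate, here and below, therefore cannot tell depth from class. Without set 7 6277 genes passed (36.2%; 16.5% higher and 19.8% lower), without set 3 3715 and without set 4 3460. Every call named below comes from the fit without block or covariate, and under the block none of those genes passed. A class by genotype term gave 0 calls (edgeR; 845 at an unadjusted p under 0.05).

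Nuclear genes of the respiratory chain were higher more often than lower. For this and every list below, the shares over all genes tested are 18.8% higher and 21.1% lower. Of 36 complex I subunits 17 were higher and 4 lower (14 and 3 without set 7), with a median log2 change of 0.29 against 0.02 over all genes tested. Ndufc1, an accessory subunit of the membrane arm (ENSMUSG00000037152, chromosome 3, 51404677 to 51408988), stood at 38, 45, 33.3, 42 and 35.8 CPM in the low libraries. In the high libraries its lowest, median and highest values were 58.3, 81.7 and 122 CPM, with no overlap. The log2 change was 1.14 ± 0.17 (SE, adjusted p = 3.86e-04). Ndufa5 (0.79, adjusted p = 6.07e-04), Ndufs6 (0.86, adjusted p = 7.56e-04) and Ndufa10 (0.86, adjusted p = 9.95e-04) were higher too, also without overlap. The core subunit Ndufs1 was among the 4 lower ones.

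Complexes II to IV and ATP synthase also held members of both directions. In complexes II to IV 9 of 25 genes were higher and 2 lower (median 0.13), with Cox4i1, a cytochrome c oxidase subunit (0.63, adjusted p = 0.00109), and the complex III subunits Uqcrh (0.48, adjusted p = 0.00156) and Uqcr10 (0.84, adjusted p = 0.00229) higher. Sdha, the flavoprotein of succinate dehydrogenase, was lower: 199, 221, 197, 223 and 172 CPM in the low against 126, 154 and 166 CPM (lowest, median, highest) in the high libraries, without overlap (log2 change -0.45 ± 0.09 SE, adjusted p = 0.00167). For ATP synthase 9 of 16 were higher and 3 lower (median 0.40). Atp5e, the epsilon subunit, had the smallest p of the list, at 139, 169.8, 195, 152 and 267 CPM in the low and 279, 447 and 1087 CPM in the high libraries (log2 change 1.49 ± 0.27 SE, adjusted p = 7.92e-04). Atp5d (0.91, adjusted p = 0.0029) and Atp5k (0.88, adjusted p = 0.00345) were higher as well. Atp5a1 (-0.47, adjusted p = 0.00257) and Atp5b, which form the catalytic head, were lower. With the nuclear total as a covariate 1 gene of these 3 lists passed.

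The machinery that copies, reads and maintains mitochondrial DNA split evenly. Of 29 such genes 7 were higher and 6 lower, against 18.8 and 21.1% of all genes. Tfam, which packs mitochondrial DNA and starts its transcription, stood at 35.5, 36.1, 27.2, 38.6 and 23.7 CPM in the low and 18.7, 25.3 and 26.1 in the high libraries, with overlap and lower by the test (log2 change -0.45 ± 0.12 SE, adjusted p = 0.00689). Lrpprc, which stabilises mitochondrial messenger RNAs and their poly(A) tails, was lower, at 72.9, 78.8, 56.6, 80.8 and 54.2 against 17.7, 41.4 and 50.9 CPM (log2 change -0.78 ± 0.18 SE, adjusted p = 0.00305). Its partner Slirp was higher (0.67, adjusted p = 0.00146), as was the RNA helicase Supv3l1 (0.54, adjusted p = 0.00603). Genes whose products handle mitochondrial RNA were thus called in both directions. Lars2, the mitochondrial leucyl-tRNA synthetase (ENSMUSG00000035202, chromosome 9, 123366927 to 123462666), was the most abundant of the 10 largest rises at 50 CPM or more: 2862, 5143, 3246, 3499.5 and 8459 CPM in the low and 7932, 14687 and 40920.0 in the high libraries. The ranges met, since the low mIAPP library of set 5 lay above the lowest high library, and the log2 change was 1.95 ± 0.41 (SE, adjusted p = 0.00191). Lars2 is not in the list of 29, whose members summed to 759 to 880 CPM in the high libraries. It shares 0 words of 31 bases with mitochondrial transcripts. Sequence shared with other RNAs was not examined, so the part of such reads in its level was not tested.

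Import, protein quality control and dynamics were mixed, beside 18.8% higher and 21.1% lower over all genes tested. In the import, protease and chaperone list 6 of 22 were higher and 3 lower. The protease Clpp (0.96, adjusted p = 0.00196), the prohibitin Phb (0.62, adjusted p = 0.00477) and the translocase subunit Timm50 (0.56, adjusted p = 0.00501) were higher, and the chaperone Dnaja3 lower (-0.68, adjusted p = 0.00161). In the dynamics and mitophagy list 4 of 19 were higher and 5 lower. The fusion genes Mfn2 (-0.57, adjusted p = 0.00238) and Opa1 (-0.69, adjusted p = 0.00273) and the autophagy receptor Sqstm1 (-0.63, adjusted p = 0.00238) were lower.

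Most cytosolic ribosomal protein genes were higher. Of the 87 tested 70 were higher and 0 lower, with a median log2 change of 0.71, and without set 7 68 of 86 were higher and 0 lower. Their summed level was 52209 ± 10244 against 30907 ± 3159 unscaled nuclear CPM (SD, n = 11 and 5; exact permutation, adjusted p = 0.00797, 0.0595 over whole sets and 0.085 without set 3), with 27355 to 35060.0 in the low and 42640.0 to 77597 in the high libraries, so the classes did not overlap in unscaled CPM. In TMM-scaled CPM the sums of the tested members did overlap, at 24592 to 39830 in the low and 38780 to 78714 in the high libraries. Rpl14, of the large subunit (ENSMUSG00000025794, chromosome 9, 120571444 to 120574654), stood at 318, 432, 343, 370.1 and 483 CPM in the low and 652, 910.3 and 1554 in the high libraries (log2 change 1.32 ± 0.20 SE, adjusted p = 3.96e-04). Rpl36a (1.35, adjusted p = 4.24e-04), Rpl21 (1.23, adjusted p = 5.23e-04) and Rps6, a kinase target of the small subunit (0.99, adjusted p = 5.06e-04), were higher without overlap. With the nuclear total as a covariate 3 of the family passed, with a median of 0.44. These genes have many processed pseudogenes, whose near-identical sequence makes the split of reads between copies uncertain.

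Mitochondrial ribosomal proteins are encoded in the nucleus and build the ribosome that translates the mt- messages. Of 78, 29 were higher and 4 lower, with a median of 0.22, and with the nuclear total as a covariate 0 passed. Their sum was 2802 ± 172 against 2256 ± 81.3 unscaled nuclear CPM (exact permutation, adjusted p = 0.00797, 0.0595 over whole sets and 0.0567 without set 3), with 2155 to 2360.0 in the low and 2644 to 3184 in the high libraries. In TMM-scaled CPM these sums overlapped, at 2003 to 2629 in the low and 2321 to 3470 in the high libraries. Mrpl24 stood at 88.5, 93.8, 106, 86.7 and 156 CPM in the low and 143, 185 and 327 in the high libraries and overlapped through the mIAPP library of set 5 (log2 change 0.93 ± 0.18 SE, adjusted p = 0.00122). Mrpl45 (0.94, adjusted p = 0.00124), Mrpl52 (0.96, adjusted p = 0.00124) and Mrpl21 (0.71, adjusted p = 0.00124) were higher too.

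Many receptor genes that islets hardly use, and many pseudogenes, were higher in the high class. Olfactory receptors are the odorant receptors of nasal neurons, and 374 of the 1405 in the table were tested after the filter on low counts. A gene that passes that filter only through the class where it is high had to differ, so the counts are descriptions: 202 were higher and 3 lower, median 1.24. The family's sum was 1342 ± 294 against 643 ± 149 unscaled nuclear CPM (exact permutation, adjusted p = 0.00797, 0.0595 over whole sets and 0.0567 without set 3), with 427 to 801 in the low and 978 to 1985 in the high libraries. Olfr769 stood at 9.5, 11.9, 8.17, 9.67 and 17.1 CPM in the low and 24.4, 30.7 and 46.3 in the high libraries without overlap (log2 change 1.56 ± 0.21 SE, adjusted p = 2.50e-04). Olfr731 (1.35, adjusted p = 2.63e-04), Olfr1385 (1.38, adjusted p = 2.84e-04) and Olfr1062 (3.65, adjusted p = 3.50e-04) did likewise.

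Vomeronasal receptors, which sense pheromones, were filtered likewise, so their counts are descriptions too. Of 332, 154 were tested, 89 were higher and 0 lower, with a median of 1.24 (85 higher of 151 without set 7). The family's sum, 2662 ± 5148 against 329 ± 88.4 unscaled nuclear CPM, did not pass (exact permutation, adjusted p = 0.369); without set 7 it did, with a class difference of 425.5 CPM (exact permutation, adjusted p = 0.0068). Vmn1r184 stood at 0.352, 0.523, 0.376, 0.761 and 0.833 CPM in the low and 1.65, 2.51 and 3.38 in the high libraries (log2 change 2.12 ± 0.29 SE, adjusted p = 2.63e-04), and Vmn1r81 (1.42, adjusted p = 2.44e-04), Vmn1r87 (1.87, adjusted p = 3.67e-04) and Vmn2r100 (3.82, adjusted p = 2.63e-04) were higher. Among 1041 processed pseudogenes, copies of messenger RNAs pasted back into the genome, 29.8% were higher and 8.07% lower, with a median of 0.90. They passed the same filter on low counts, so these shares are descriptions too. Rows of pseudogenes with no mitochondrial words held 1.15 ± 0.172 against 0.754 ± 0.055% of the nuclear counts (exact permutation, adjusted p = 0.00797, 0.0595 over whole sets and 0.085 without set 3), again without overlap.

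Shorter transcripts were called higher more often than longer ones. Among 15939 protein-coding genes with a known length (the median of a gene's annotated transcripts), cut into 5 equal groups, in the shortest group 23% were higher and 20.5% lower, and in the longest group 13.6% and 28.8%. By level, the 3512 genes with the lowest mean CPM held 17.4% higher and 3.19% lower calls, and the 3512 with the highest 21% and 31.9%. Genes of the lowest group could pass the filter on low counts through 1 class alone, so its shares are descriptions. The mean transcript length of the nuclear counts without insulin was 1581 ± 57.2 against 1701 ± 68.2 bases (exact permutation, adjusted p = 0.0159). It did not pass over whole sets (0.0744), without set 3 (0.085) or without set 4 (0.227; exact permutation, adjusted). Within the spliceosome list, where 7 of 29 genes were higher and 7 lower, the median length was 620.0 bases for the higher and 1494 bases for the lower members. The nuclear respiratory chain and ATP synthase genes had 581 and 730 bases, and mitochondrial ribosomal proteins 773 and 1612. ER translocation genes had 757.5 and 1209, and zinc finger genes named Zfp 1679.5 and 2195. In the proteasome list it was the other way, at 875 and 786.5 bases, as in the ER stress list, at 1906 (1 gene) and 1240.5. Of the 87 cytosolic ribosomal protein genes 85 had 1000 bases or less, as had 69 of the 77 respiratory chain and ATP synthase genes. U2af1, which marks the 3′ splice site, was higher (0.62, adjusted p = 7.20e-04), as was Snrpd2 (0.88, adjusted p = 0.00167), and the large core proteins Prpf8 (-0.95, adjusted p = 4.64e-04) and Sf3b3 (-0.56, adjusted p = 8.72e-04) were lower. The part of length, level or RNA quality in the other results was not tested.

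Most ER stress genes were lower. The unfolded protein response raises chaperones and degradation factors when protein folding in the ER lags behind. Of 25 genes 16 were lower and 1 was higher (Atf3), with a median of -0.54, and without set 7 17 were lower and 1 higher. Hyou1, an ER chaperone of the Hsp70 family (ENSMUSG00000032115, chromosome 9, 44379490 to 44392369), stood at 668, 698, 804, 779 and 592 CPM in the low and 108, 331 and 419.7 in the high libraries, without overlap (log2 change -1.28 ± 0.23 SE, adjusted p = 7.86e-04). Ern1, the sensor Ire1, stood at 216, 209, 196, 230.2 and 153 against 23.2, 83 and 127 CPM (log2 change -1.44 ± 0.29 SE, adjusted p = 0.00171). Herpud1, of ER-associated degradation, stood at 231, 256, 286, 267 and 279.5 against 123, 171 and 194 CPM (log2 change -0.68 ± 0.10 SE, adjusted p = 3.95e-04). The disulfide isomerase Pdia6 (-0.72, adjusted p = 5.71e-04) and the degradation factor Edem1 (-0.74, adjusted p = 6.24e-04) were lower too, each without overlap. With the nuclear total as a covariate 1 of the 25 passed.

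The promoters of some of these genes carry the letters of the ER stress response element, spelled CCAAT, then 9 bases of any kind, then CCACG, and searched on both strands in windows of 300 bases (250 before the start to 50 after it; RefSeq, GRCm38.p6). It was found in 35 of 27025 promoters (0.13%) and in 8 of the 22 promoters matched from the list (36.4%). Of the list's 14 lower genes with a promoter, 3 held it, and they are printed with the element in capitals because they are the lower members that share it.
Hspa5, chr2:34771840-34772139, plus strand: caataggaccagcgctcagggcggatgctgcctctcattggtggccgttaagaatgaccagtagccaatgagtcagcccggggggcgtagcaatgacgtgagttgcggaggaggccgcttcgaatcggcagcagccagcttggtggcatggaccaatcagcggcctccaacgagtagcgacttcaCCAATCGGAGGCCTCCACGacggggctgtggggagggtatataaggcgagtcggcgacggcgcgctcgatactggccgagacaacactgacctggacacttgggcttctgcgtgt
Pdia6, chr12:17266339-17266638, plus strand: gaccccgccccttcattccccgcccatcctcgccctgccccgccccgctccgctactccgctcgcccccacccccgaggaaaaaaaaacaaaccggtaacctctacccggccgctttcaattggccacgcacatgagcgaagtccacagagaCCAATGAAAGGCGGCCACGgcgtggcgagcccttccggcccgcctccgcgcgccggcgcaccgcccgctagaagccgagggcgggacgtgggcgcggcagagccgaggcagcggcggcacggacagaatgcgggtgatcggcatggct
Syvn1, chr19:6046326-6046625, plus strand: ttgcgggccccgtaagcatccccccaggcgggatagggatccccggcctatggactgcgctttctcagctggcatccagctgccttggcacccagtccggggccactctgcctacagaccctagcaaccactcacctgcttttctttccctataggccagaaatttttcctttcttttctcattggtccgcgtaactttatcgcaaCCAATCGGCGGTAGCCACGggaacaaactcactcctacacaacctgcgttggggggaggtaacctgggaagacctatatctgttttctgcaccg
Hspa5, the chaperone BiP, fell by 0.55 on the log2 scale (adjusted p = 0.00373), and Syvn1, the ubiquitin ligase of ER-associated degradation, by 0.38 (adjusted p = 0.0208). The other 5 genes with the element did not pass: Hsp90b1 (-0.26), Calr (-0.06), Canx (-0.33), Dnajc3 (-0.36) and Creld2 (-0.02, each a log2 change). The element thus lies on both sides of the call, and of all 2792 lower genes with a promoter it was found in 0.107%.

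Protein entry to the ER and the Atf4 branch followed the same direction. Of 26 translocation and glycosylation genes 10 were lower and 2 higher (median -0.28). Srpr, the receptor for the signal recognition particle, stood at 389, 427, 470.1, 462 and 376 CPM in the low and 184, 252 and 288 in the high libraries without overlap (log2 change -0.84 ± 0.12 SE, adjusted p = 2.63e-04). Ddost (-0.46, adjusted p = 0.00106), Srprb (-0.60, adjusted p = 0.00129) and Rpn1 (-0.39, adjusted p = 0.00338) were lower as well. The list of Atf4 targets and mitochondrial stress held 13 lower and 1 higher of 20 (median -0.35). Aldh1l2, the mitochondrial folate dehydrogenase, stood at 119.7, 136, 98.8, 146 and 79.5 against 21.9, 50.5 and 65.7 CPM (log2 change -1.35 ± 0.20 SE, adjusted p = 3.86e-04). The serine synthesis gene Phgdh (-0.79, adjusted p = 4.56e-04), the proline synthesis gene Aldh18a1 (-0.43, adjusted p = 0.00116) and Ddit4, an inhibitor of mTORC1 (-0.71, adjusted p = 0.00278), were lower. Atf4 itself and Gdf15 were among the 13. With the nuclear total as a covariate 2 genes of each list passed, all lower.

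Genes of cholesterol synthesis and transport were called lower more often than higher. Of 25 genes of cholesterol synthesis and uptake 12 were lower and 1 higher (median -0.53), but with the nuclear total as a covariate 0 of the 25 passed, with a median of -0.17. Sqle, the squalene epoxidase, stood at 102, 141, 102, 132 and 88.2 CPM in the low and 56.5, 72.7 and 86.6 in the high libraries (log2 change -0.67 ± 0.12 SE, adjusted p = 7.03e-04). Lss, the lanosterol synthase, was lower too (-0.60, adjusted p = 6.97e-04). Of 15 sterol transport genes 9 were lower and 2 higher, and 0 passed with that covariate. Star, which carries cholesterol into mitochondria and stands in the series title, was at 14.5, 20.9, 9.58, 15 and 14.4 CPM in the low and 5.34, 9.35 and 15.9 in the high libraries. The ranges overlapped, and the fall was -0.65 ± 0.20 (SE, adjusted p = 0.0153). Stard4 (-0.81, adjusted p = 0.00183) and Abca1 (-0.75, adjusted p = 0.0138) were lower, and Fdxr, the mitochondrial ferredoxin reductase, was higher (1.01, adjusted p = 0.0011).

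**Figure D3:**
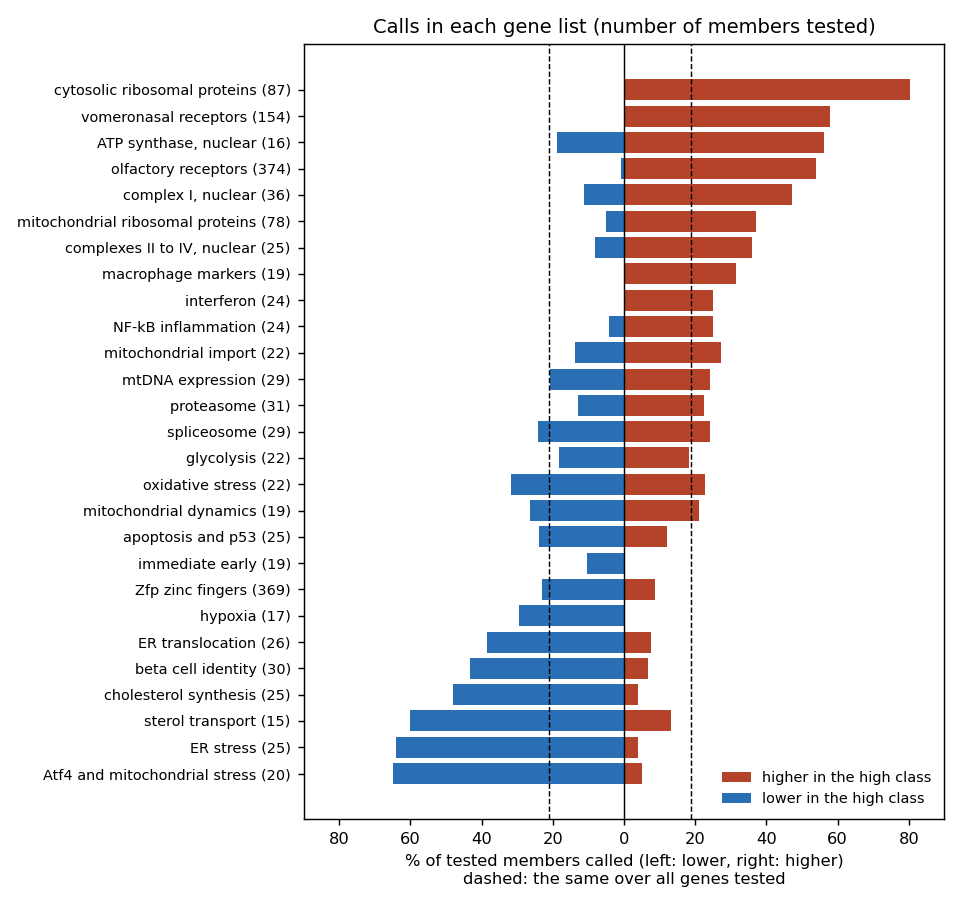
Percent of tested members of each list called lower (left) and higher (right) in the high class at 11.1 mM, with the number of members tested in parentheses; dashed lines mark 21.1% lower and 18.8% higher over all genes tested. Ribosomal, receptor and respiratory chain lists extend to the right, and ER stress, sterol and Atf4 lists to the left.

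Of 30 genes of beta cell identity 13 were lower and 2 higher (median -0.17), while the insulin genes did not pass, and with the nuclear total as a covariate 0 of the 30 passed. Ins2 stood at 133590.0, 149100.0, 224340.0, 149220.0 and 272450.0 CPM in the low and 123490.0, 161680.0 and 190550.0 in the high libraries (log2 change -0.17 ± 0.18 SE, adjusted p = 0.475), and Ins1 had a log2 change of 0.33 ± 0.22 (SE, adjusted p = 0.235). Iapp did not pass either, at -0.25 ± 0.12 (SE, adjusted p = 0.117). How reads of the human IAPP of hIAPP islets enter the mouse row is not given in the sources used here. Ero1lb, the beta cell oxidase that drives disulfide formation, stood at 2163, 2456, 1619, 2496 and 1560.4 against 717, 1234 and 1498 CPM without overlap (log2 change -0.85 ± 0.15 SE, adjusted p = 7.58e-04). The prohormone convertases Pcsk1 (-1.30, adjusted p = 0.00161) and Pcsk2 (-0.56, adjusted p = 0.00148), which cleave proinsulin, and the granule protein Sytl4 (-0.82, adjusted p = 0.00114) were lower, with overlap. Slc2a2, the glucose transporter, was lower without overlap (-0.75, adjusted p = 0.00162), as was Pfkm of glycolysis (-0.56, adjusted p = 0.00232). Pfkfb2 was lower (-0.94, adjusted p = 0.00575) and Eno2 higher (0.41, adjusted p = 0.0121). Of 18 genes that beta cells normally silence 2 were higher, Ldha and Sox9, of which Sox9 did not pass without set 7. The lower one was Neurog3, the transcription factor of endocrine progenitors, at -1.40 ± 0.30 (SE, adjusted p = 0.00212).

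Of 24 NF-kB genes 6 were higher and 1 lower, with a median of 0.01 against 0.02 over all genes; 25% higher is near the 18.8% of all genes. Ccl5, a chemokine for T cells and monocytes, stood at 2.18, 2.91, 3.43, 2.17 and 3.84 CPM in the low and 5.22, 8.2 and 14.1 in the high libraries without overlap (log2 change 1.52 ± 0.23 SE, adjusted p = 4.24e-04). Saa3, an acute phase protein, was at 8.27, 16.8, 4.37, 9.82 and 20.3 against 55.1, 99.4 and 484 CPM (log2 change 3.47 ± 0.60 SE, adjusted p = 8.91e-04). Relb was higher (0.72, adjusted p = 0.00478) and Nfkb1 lower (-0.73, adjusted p = 8.95e-04). Of 24 interferon genes likewise 6 were higher (25%) and 0 lower, with a median of 0.26, among them Xaf1 (0.88, adjusted p = 0.00168), Oas1a (0.82, adjusted p = 0.00453), Ifit1 (1.17, adjusted p = 0.00484) and Psmb8 (0.58, adjusted p = 0.00798).

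Markers of other cell types were measured beside these. In bulk RNA, fewer cells of a type and less RNA in each cannot be told apart. Of 19 macrophage markers 6 were higher (31.6%) and 0 lower, against 18.8 and 21.1% of all genes tested. Aif1, the macrophage protein Iba1, stood at 4.61, 4.68, 4.98, 4.03 and 4.9 CPM in the low and 9.25, 12 and 23.6 in the high libraries (log2 change 1.48 ± 0.19 SE, adjusted p = 2.44e-04), and C1qb (0.76, adjusted p = 0.00266), Laptm5 (0.63, adjusted p = 0.0124) and Fcgr3 (0.62, adjusted p = 0.0177) were higher with overlap. With the set block the sign of C1qb, Laptm5 and Fcgr3 reversed. The summed macrophage level was 570 ± 129 against 446 ± 59.8 unscaled CPM, which did not pass (exact permutation, adjusted p = 0.167), and with the set block the list's median was -0.65. Its part in the inflammatory genes was not tested. Alpha cell markers summed to 2790 to 7989 CPM in the high and 2801 to 13301 CPM in the low libraries (exact permutation, adjusted p = 0.247; 0.0354 without set 5, with a class difference of -3598 CPM). Acinar markers summed to 25.5 to 425 and 21.7 to 251 CPM (exact permutation, adjusted p = 0.901), and ductal, endothelial, stellate, lymphocyte, glial and delta cell sums did not pass either (exact permutation, adjusted p = 0.878, 0.367, 0.901, 0.255, 0.167 and 0.825). Red blood cell genes (globin genes, Alas2 and Slc4a1) summed to 1.66 ± 0.64 against 0.783 ± 0.515 CPM (exact permutation, adjusted p = 0.0364). Their sum did not pass over whole sets (0.191) or without set 2, 3, 4, 6 or 8 (0.0534 to 0.389), and none of the 3 tested passed alone. The neutrophil markers were near 0 in both classes, at 0.38 CPM or less in sum.

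Single markers moved within those lists. The endothelial genes Egfl7 (1.00, adjusted p = 0.00538) and Pecam1 (0.80, adjusted p = 0.0262) were the 2 of 14 that were higher, and the stellate genes Thy1 (1.14, adjusted p = 0.00889), Vim (0.62, adjusted p = 0.0373) and Sparc (0.66, adjusted p = 0.0388) the 3 of 18, of which Vim and Sparc did not pass without set 7. The B cell genes Ms4a1 (2.15, adjusted p = 0.0111) and Cd79b (1.60, adjusted p = 0.0418) and the lipase Pnlip (1.99, adjusted p = 0.0489) were higher. In the ductal list Muc1 (0.65, adjusted p = 0.0363), Krt18 (0.38, adjusted p = 0.0449) and Sox9 (1.16, adjusted p = 0.0453) were higher and Epcam lower (-0.57, adjusted p = 0.00333), and Krt18, Sox9 and Pnlip did not pass without set 7. The sign of Egfl7, Thy1, Vim, Muc1 and Krt18 reversed with the set block, as did that of Relb and Psmb8. Slc7a2 was the 1 alpha marker of 10 that was lower (-0.73, adjusted p = 8.91e-04). Sst, the somatostatin gene of delta cells (-0.67, adjusted p = 0.0303), was lower and Cd9 higher (0.58, adjusted p = 0.0122). The 4 Y-linked genes did not pass, with Ddx3y at 24.4, 0.145, 17.7, 0.152 and 7.86 CPM in the low and 0.368, 37.5 and 66.5 in the high libraries.

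Other lists gave calls in 1 or both directions, beside 18.8% higher and 21.1% lower over all genes tested. Immediate early genes gave 0 higher and 2 lower of 19, Btg2 (-0.70, adjusted p = 5.27e-04) and Arc (-1.20, adjusted p = 0.0094). Of 17 hypoxia genes 0 were higher and 5 lower, with Vegfa at 637, 559.7, 594, 600.1 and 669 CPM in the low and 304, 401 and 593 in the high libraries (log2 change -0.60 ± 0.13 SE, adjusted p = 0.00172) and Ndrg1 without overlap (-0.53, adjusted p = 0.00301). Among 22 oxidative stress genes 5 were higher and 7 lower. Both subunits of the enzyme that starts glutathione synthesis, Gclc (-1.06, adjusted p = 0.00226) and Gclm (-0.78, adjusted p = 0.00133), were lower, and the glutathione peroxidase Gpx4 was higher (0.58, adjusted p = 0.003). Of 25 apoptosis and p53 genes 3 were higher (12%) and 6 lower (24%, near the share of all genes). Casp9 was lower (-0.62, adjusted p = 0.00178) and the death receptor Tnfrsf10b higher (0.91, adjusted p = 0.00271), each without overlap. Of 31 proteasome genes 7 were higher (22.6%, near the share of all genes) and 4 lower (12.9%), with Psmd2 among the lower (-0.47, adjusted p = 0.00149). Of 20 proliferation genes 1 was lower, Mcm2, which did not pass without set 7. Zinc finger genes named Zfp gave 32 higher (8.67%) and 85 lower (23%) of 369, among them Zfp526 (-1.15, adjusted p = 2.44e-04) and Zfp790 (-1.15, adjusted p = 2.50e-04). Of 52 histone genes 4 were higher and 8 lower, among them Hist4h4 (2.84, adjusted p = 9.72e-04) and Hist1h2bg (-2.35, adjusted p = 0.00149). Snhg11, a nuclear host RNA of small nucleolar RNAs, was higher without overlap (1.62, adjusted p = 0.001).

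By size among genes at 50 CPM or more, the largest rises were of Rpl10-ps3, Klf10, Cdc45, Saa3, Zfp280d, Mmachc, Ulk4, Olfr46, Rpl17-ps3 and Lars2. Klf10, a zinc finger repressor induced by TGF-beta (ENSMUSG00000037465, chromosome 15, 38291463 to 38300706), stood at 67.5, 107, 15.3, 54.8 and 10.5 CPM in the low and 147, 1060.5 and 2471 in the high libraries, without overlap (log2 change 4.60 ± 0.73 SE, adjusted p = 6.25e-04, 24.2-fold). In set 5, whose 2 libraries fell in different classes, Klf10 stood at 1074 CPM in hIAPP and 10.5 CPM in mIAPP islets, and Lars2 at 17412 and 8459 CPM. Cdc45, a replication helicase factor, stood at 4.96, 9.39, 4.55, 5.18 and 21.3 against 50.1, 101 and 656 CPM (log2 change 4.18 ± 0.75 SE, adjusted p = 0.00118). Mmachc, which processes vitamin B12, stood at 45.8, 72.8, 35.2, 55.8 and 84.6 against 207, 325 and 1539.6 CPM (log2 change 2.95 ± 0.51 SE, adjusted p = 8.45e-04). Zfp280d (3.29, adjusted p = 8.02e-04), Ulk4 (2.89, adjusted p = 2.44e-04), Olfr46 (2.48, adjusted p = 6.68e-04) and the pseudogenes Rpl17-ps3 (2.07, adjusted p = 5.56e-04) and Rpl10-ps3 (5.21, adjusted p = 0.0122) completed the group, and Rpl10-ps3 alone overlapped beside Lars2.

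The largest falls at this level were of Srcap, Zc3h11a, Ptprn2, Ern1, Lrrn1, Gse1, Sec24d, Aldh1l2, Pcsk1 and Hyou1. Srcap, the ATPase of a chromatin remodeller, stood at 97.6, 85.3, 122, 93.9 and 143 CPM in the low and 13.1, 28.5 and 57.5 in the high libraries (log2 change -1.86 ± 0.33 SE, adjusted p = 8.70e-04). Ptprn2, the dense core granule protein phogrin, stood at 313, 437, 429, 473 and 372 against 59.6, 114 and 205 CPM (log2 change -1.57 ± 0.25 SE, adjusted p = 4.87e-04). Sec24d, a coat protein of vesicles that leave the ER, stood at 105, 112, 110.0, 125 and 83.5 against 15.8, 44.1 and 65.4 CPM (log2 change -1.38 ± 0.23 SE, adjusted p = 5.23e-04). Lrrn1 (-1.40, adjusted p = 0.002) and Gse1 (-1.38, adjusted p = 4.14e-04) were lower without overlap. Zc3h11a is uncertain: the row that fell (-1.61, adjusted p = 0.0372) and a second row of the same symbol, at 0.65 (adjusted p = 0.0715), cover the same span of chromosome 1.

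**Figure D4:**
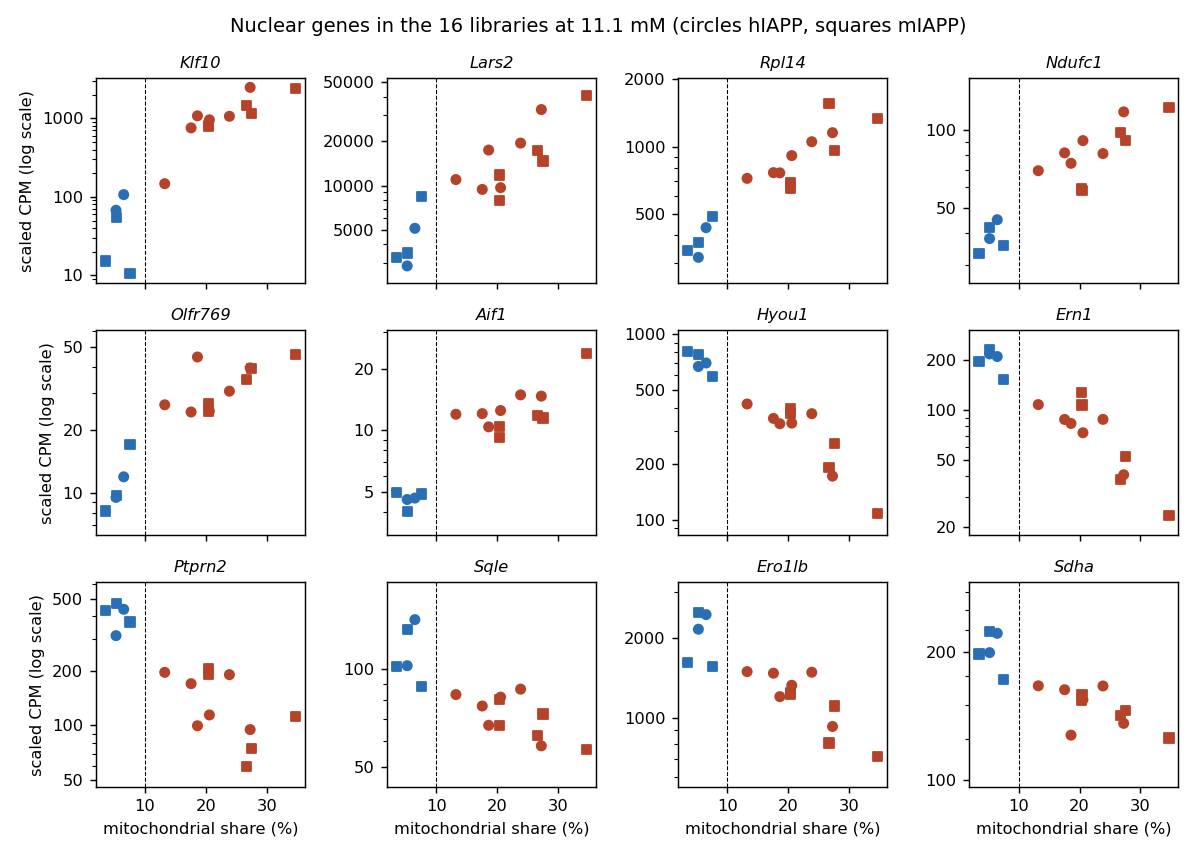
Scaled CPM (log y axis) of 12 nuclear genes against the mitochondrial share (x axis) in the 16 libraries at 11.1 mM; red is the high and blue the low class, circles hIAPP and squares mIAPP, and the dashed line is 10%. The first 6 genes are higher and the last 6 lower in red libraries, and in set 7 Hyou1 reaches its lowest value of 108 CPM and Lars2 its highest of 40920.0 CPM.

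From a mean of 1 CPM upward the largest changes were mostly of pseudogenes and rarely detected genes. Rps12l1, Rpl36a-ps3, Rpl10-ps1, Rpl30-ps10, Ugt1a8 and Rpl3-ps1 had 0 counts in all 5 low libraries. They passed the filter on low counts only through the high class, so their calls are descriptions. Rpl36a-ps3 was detected in all 11 high libraries, at 4.96, 12.4 and 53.5 CPM, at least 167-fold above a floor of 3 counts per library. Rps12l1 ranged from 0 to 215 CPM in the high class, and with Ugt1a8 and Rpl3-ps1 it did not pass without set 7. Ptpn5, Zfp831, Tcte1 and Kiss1, the kisspeptin gene, were higher but overlapped, at high-class medians of 1.31, 1.59, 1.31 and 0.982 CPM. In the other direction Rpl23a-ps3 and Dynlt1-ps1 had 0 counts in all 11 high libraries, and neither passed without set 7. Both passed that filter only through the low class, so their calls are descriptions too. Morf4l1-ps1 (7, 17, 11.5, 17.5 and 1.2 CPM against 0, 0 and 0.393) and Myl12b, a myosin light chain (31.2, 39.2, 86.9, 44.9 and 74.1 against 0, 0.118 and 11.7), did not overlap. Cox6c2, Tmem181c-ps and Moap1 were lower without overlap, and Zxda, Trpc2 and Pcdha9 with it. A pseudogene can share reads with its parent gene, so the split between them is uncertain.

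The 16.7 mM libraries, which the rule did not use, gave the same measure in other samples. Their shares were 2.68 to 6.76% in hIAPP and 2.84 to 37% in mIAPP islets, where sets 6, 7 and 8 reached 13.2, 37 and 13.4%. Across the 8 sets the share at 11.1 mM and that at 16.7 mM had a Pearson r of 0.667 in hIAPP islets (exact permutation p = 0.0525, adjusted over the same 3 relations 0.0525; rho 0.452, p = 0.268, adjusted 0.268) and 0.733 in mIAPP islets (exact permutation p = 0.0165, adjusted 0.0247; rho 0.762, p = 0.0368, adjusted 0.0551). Without sets 3 and 4 these were 0.743 and 0.71. Because no hIAPP library reached 10%, the log2 ratio of mitochondrial to nuclear counts was used as a slope beside genotype. Of 15527 genes 4548 rose with it (29.3%) and 4629 fell (29.8%), together 59.1% (edgeR adjusted p under 0.05), 5243 in all with the set block, 4817 without the mIAPP library of set 7 and 3951 without set 7. Of the genes higher at 11.1 mM and tested in both, 2481 of 2736 (90.7%, 54.6% of those rising at 16.7 mM) were called the same way, and of the lower genes 3109 of 3674 (84.6%, 67.3% of those falling). 0 were called the opposite way. Without set 7 at 16.7 mM these shares were 55 and 39.7%. The libraries of the 2 glucose levels share their sets, so they are not independent.

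Named groups followed the slope with exceptions. Of 83 cytosolic ribosomal protein genes 72 rose with it and 1 fell, of 36 complex I genes 22 rose and 4 fell, and of 25 ER stress genes 0 rose and 19 fell. Klf10 rose by 1.74 ± 0.16 per doubling of the ratio (SE, adjusted p = 7.27e-07) and Hyou1 fell by 0.36 ± 0.05 (adjusted p = 1.32e-05). Star, at -0.09 ± 0.12 per doubling (adjusted p = 0.54), did not pass there. The beta cell identity list was balanced at 16.7 mM, with 11 rising and 9 falling of 30. In complexes II to IV 9 of 25 rose and 7 fell there, against 9 higher and 2 lower at 11.1 mM. In ATP synthase 10 of 16 rose and 5 fell, and in the mitochondrial import list 7 of 22 rose and 7 fell. Splitting only the 8 mIAPP libraries at 10% (3 against 5) gave 0 calls of 16157 genes (0.0%; edgeR, 3143 at an unadjusted p under 0.05, smallest adjusted p = 0.201). Of the genes higher at 11.1 mM 98.1% and of the lower 98.3% had the same sign there.

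**Figure D5:**
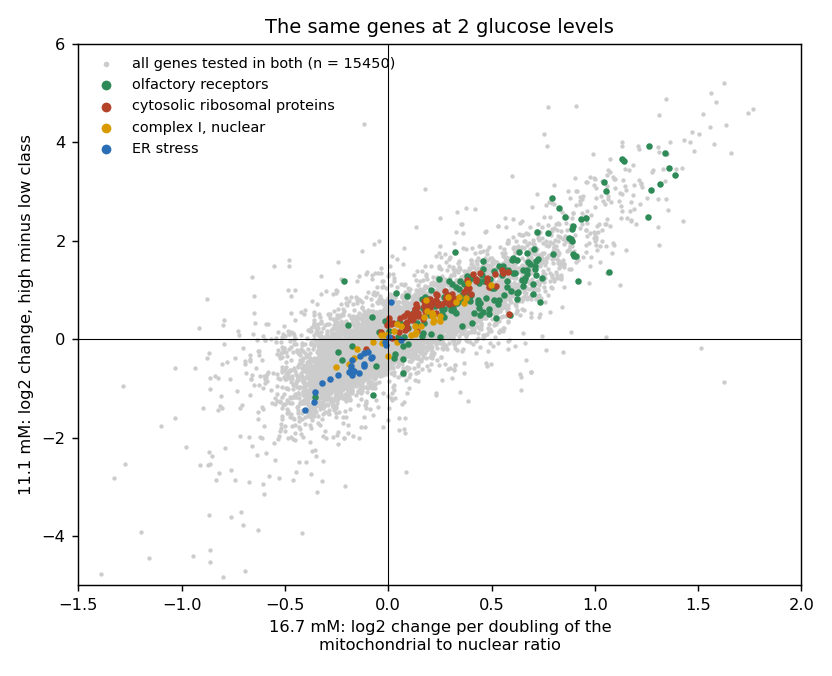
Log2 change between the classes at 11.1 mM (y axis) against the log2 change per doubling of the mitochondrial to nuclear ratio at 16.7 mM (x axis) for 15450 genes tested in both (34 lie outside the axes). Colours mark 4 lists: ribosomal, complex I and olfactory receptor genes lie mostly to the upper right and ER stress genes mostly to the lower left.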

How the data were processed

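Poly(A)-selected directional libraries of cultured islets were sequenced, and the submitters' processing notes name bcl2fastq 1.8.4, kallisto 0.45.0 and GRCm38. The authors deposited 1 table of estimated counts per gene for all 32 libraries, with 36595 rows. Values were rounded to whole counts, and 35968 row identifiers were found in GENCODE M21 (627 were not). The 13 mitochondrial rows were left out of library sizes and tests. The classes were compared with edgeR 4.0.16 (R 4.3.3; filterByExpr, TMM scaling, quasi-likelihood test, genotype as a term, 13 residual degrees of freedom), with Benjamini-Hochberg adjusted p-values over all genes tested. All adjusted p-values of single genes come from this edgeR fit. limma 3.58.1 (voom) and DESeq2 1.42.0 served as alternatives. Summed levels, shares and detected genes of libraries were compared by exact two-sided permutation within genotype (1568 arrangements) and adjusted over 25 measures; a permutation of whole sets (168 arrangements) was added after seeing the data.

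On simulated data with 100 genes changed 2-fold and 100 changed 4-fold among 17559, the fit recovered 72 and 95, and called 9 unchanged genes. The simulated libraries were independent, with no set or genotype effect. They therefore give no error rate for data in which class and set go together. The labels number the experiment sets, so libraries of 1 number are paired by set. After the genotype mean was subtracted, log CPM of same-set libraries correlated at 0.28 on average (lowest 0.0035) against -0.04 for other sets. By this measure 4 of 8 sets matched their own number best. Class was not subtracted: r was 0.579 and 0.68 in sets 3 and 4, low in both genotypes, and 0.0035 in the mixed set 5. These values therefore cannot tell set from class. The fit with the set as a block is given beside the counts.

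The members and lists were chosen with earlier results of these data known. Named genes were Iapp, Star, Ins1 and Ins2. To these were added called genes with the same sign in both genotypes and no clone name, the 10 largest changes per direction at a mean of 1 CPM and at 50 CPM, and the 4 smallest p-values of each list. Other list members named were chosen after their values were seen.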

Additional observations from a re-analysis of the deposited data

Results flagged for a closer look

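In 32 of 140 groups of 8 libraries examined at 11.1 mM, the highest or lowest library lay far from the other 7. Chance flags about 1 in 20 groups, but that rate does not hold for the genes among them, which were named for their large class differences. Many of these were libraries of set 7.

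Among hIAPP libraries, set 7 had the fewest genes detected at equal depth, 18480.0 against 19120.0 in the next. Its summed vomeronasal receptor level was 17760.0 CPM against 915. Klf10 stood at 2471 CPM there (next 1074), Rps12l1 at 89 CPM (41.7), Rpl30-ps10 at 4.63 CPM (2.13), Zfp831 at 123 CPM (1.59), Tcte1 at 4.79 CPM (2.18) and Kiss1 at 6.52 CPM (1.83). Set 2 had the highest acinar sum, 425 CPM against 124, and set 1 the highest ductal sum, 1262 CPM against 912, and the highest Ptpn5, 21.6 CPM against 7.93. The low libraries of sets 3 and 4 led in genes that are lower in the high class. In set 3 Rpl23a-ps3 stood at 0.352 CPM (next 0), Trpc2 at 2.5 CPM (1.05) and Tmem181c-ps at 5.28 CPM (2.33). In set 4 Morf4l1-ps1 stood at 17 CPM (7) and Zxda at 8.49 CPM (2.24).

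Among mIAPP libraries, set 7 had a vomeronasal receptor sum of 4732 CPM against 984. The most abundant gene concerned was Lars2, at 40920.0 CPM against 17390.0. Cdc45 stood at 655.8 CPM (next 135), Saa3 at 484 CPM (118), Zfp280d at 1105 CPM (291), Mmachc at 1540.0 CPM (384), Olfr46 at 378 CPM (121), Zfp831 at 47.7 CPM (3.1) and Kiss1 at 7.97 CPM (2.89). Set 8 was highest in Rpl30-ps10, at 15.2 CPM (3.44), and Ugt1a8, at 14.3 CPM (5.58). Set 5 was highest in the acinar sum, 251 CPM (156), and in Trpc2, 7.77 CPM (3.38). Set 4 was highest in Pcsk1, 571 CPM (278), and Dynlt1-ps1, 11.1 CPM (0). Set 1 had the highest macrophage sum, 723 CPM against 485.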

How the results depend on the processing

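At 11.1 mM the call count lay between 5382 and 8191 under other scalings, tests, filters and thresholds, a continuous mitochondrial level, no genotype term, rows with mitochondrial words left out and protein-coding genes only (the last 2 chosen after seeing the data), apart from the settings named next. Upper quartile scaling turned 3296 higher and 3699 lower into 4164 and 2719. hIAPP libraries alone gave 5100 calls, and mIAPP libraries alone 1334 (684 higher, 650.0 lower). The nuclear total as a covariate left 426 calls (247 higher, 179 lower). Leaving out 1 set or library gave 3460.0 to 7684 calls (1589 to 3663 higher, 1860.0 to 4063 lower), with the fewest without sets 3 and 4, which hold 4 of the 5 low libraries.

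With the experiment set as a replicate block 6 genes were called (6 higher, 0 lower), since class then varies only within set 5. Under this pairing 14 named genes changed sign, with log2 changes of -5.53 for Rpl3-ps1, -0.47 for Ldha, -0.12 for Relb, -0.22 for Psmb8, 0.024 for Txnip, -0.023 for Npc2, -0.23 for Muc1, -0.18 for Krt18, -0.16 for Egfl7, -0.31 for Thy1, -0.16 for Vim, -0.38 for C1qb, -0.54 for Laptm5 and -0.16 for Fcgr3. The cause was not tested.

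At 16.7 mM the block left 5243 calls (2418 rising, 2825 falling), leaving out the mIAPP library of set 7 left 4817 (2437 and 2380.0), and hIAPP libraries alone gave 483 (436 and 47). Leaving out 1 set or library gave 3951 to 9591 calls (2083 to 4677 rising, 1868 to 4914 falling), lowest without set 7. The mIAPP classes at 16.7 mM gave 0 to 3 calls (0 to 2 higher, 0 to 1 lower), at most without set 8.

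At a 15% threshold the nuclear total differed by -5.83 M and no longer passed. Leaving out 1 set moved this difference between -8.92 and -5.56 M, that of the pseudogene share between 0.346 and 0.439 percentage points and that of the mean transcript length between -146 and -93.9 bases. The first and the last did not pass without set 3 or set 4, nor the pseudogene share without set 3. With whole sets permuted (chosen after seeing the data) none of the 3 passed: the differences of -7.48 M, 0.398 percentage points and -120 bases had adjusted p-values of 0.0595, 0.0595 and 0.0744 (exact permutation). The differences in genes detected at equal depth ranged from -27.1 to 301 and in insulin share from -2.77 to 1.01 percentage points. Low counts and 5 low libraries limit genes near 1 CPM.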
